A study of Homo sapiens with 6 samples.

Results

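The 35 genes described here act in G2 and mitosis, the last stages of the cell cycle, in which a cell that has copied its DNA prepares to divide and then separates its chromosomes. They were chosen by symbol and not by a threshold on measured values, although earlier results of these data were known. All 35 were found among the 61806 genes of the deposited count table. All of them passed the filter on low counts and belong to the 19485 genes tested. The libraries came from NB4, an established line of acute promyelocytic leukaemia that carries the PML-RARA fusion. The 3 overexpressing libraries came from cells given CD69, a leukocyte surface lectin, by a lentivirus and kept as a stable line, and the 3 control libraries came from vector cells, which the sample labels list as wild type. All cells were taken in log phase without a drug, and the labels put all 6 libraries in 1 batch. Nothing in the sources used here ties the libraries of a group to separate transductions, and the p-values therefore reflect only how much these libraries vary, which may be technical.

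Entry into mitosis is driven by the kinase CDK1 bound to a B-type cyclin. Polo-like and Aurora kinases then build the spindle, the kinetochores attach chromosomes to it, and the spindle checkpoint holds the anaphase-promoting complex (APC/C), a ubiquitin ligase, inactive until every chromosome is attached. Once freed, the APC/C has cyclin B and other mitotic proteins degraded, and the cell divides by cytokinesis. The mRNAs of these proteins rise together late in the cycle. Their promoters typically hold a CHR, the cell cycle genes homology region bound by the MuvB core of the DREAM and MYB-MuvB complexes, and CCAAT boxes bound by NF-Y.

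These elements were looked for in the RefSeq promoter table (GRCh38.p14, 250 bases before to 50 after each start), which held 35 promoters of 29 members. AURKA, BIRC5, TTK, UBE2C, TPX2 and HMGB2 had no entry. The CHR was searched as TTTGAA, its reverse TTCAAA or the palindrome TTTAAA, and the NF-Y box as CCAAT or its reverse ATTGG, without regard to overlap between motifs. A CHR match stood in a promoter of 26 of the 29 members (89.7%) and in 27.9% of all 27305 genes of the table. An NF-Y match stood in 23 of the 29 (79.3%) and in 39.7% of all genes, and the same promoter held both for 20 members (69.0%) against 11.2% of genes. Of 133 other genes of the same process, described below, 115 were in the promoter table. Among these 115, 50.4% had a CHR match, 62.6% an NF-Y match and 33.9% both in the same promoter. The 3 members without a CHR match were CCNA2, AURKB and BUB1. The matches were not spread evenly: 14 of the 35 member promoters (40%) had a CHR match that began 40 to 15 bases before the start, against 3.01% of all promoters, a window chosen after the positions were seen. A match is a description of the letters and not evidence of binding. Stretches of 8 members are given 5′ to 3′ on the gene's strand, because they show where the matches lie in genes that rose, fell or did not pass the test between the groups. In CDC20 the CHR lies outside that window. In the other 7 a CHR lies within it, for CDC25C only as counted from the start at 138331804. Capitals mark CHR and NF-Y matches. The first 4 stretches lie outside annotated exons. The other 4 are 30 bases around the CHR, and all 30 bases of each lie in annotated exons.
MKI67, chr10:128126424-128126533, minus strand: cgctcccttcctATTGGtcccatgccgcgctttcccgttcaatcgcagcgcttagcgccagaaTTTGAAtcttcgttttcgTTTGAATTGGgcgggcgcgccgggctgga
KIF11, chr10:92593020-92593129, plus strand: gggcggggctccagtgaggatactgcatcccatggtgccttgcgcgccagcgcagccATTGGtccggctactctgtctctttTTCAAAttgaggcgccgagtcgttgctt
CKS2, chr9:89311085-89311194, plus strand: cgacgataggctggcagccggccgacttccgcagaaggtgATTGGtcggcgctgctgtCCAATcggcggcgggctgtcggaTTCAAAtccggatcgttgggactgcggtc
CDC20, chr1:43358871-43358954, plus strand: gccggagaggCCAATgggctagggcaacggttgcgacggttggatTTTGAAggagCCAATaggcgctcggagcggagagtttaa
CCNB2, chr15:59105104-59105133, plus strand: aagcgacgcggtaTTTGAAtcctggaacaa
PLK1, chr16:23678847-23678876, plus strand: tcccagcgccgcgTTTGAAttcggggagga
BUB1B, chr15:40161027-40161056, plus strand: accgcgcgggaccgttaaaTTTGAAacttg
CDC25C, chr5:138331817-138331846, minus strand: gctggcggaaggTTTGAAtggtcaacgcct

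In MKI67, KIF11 and CKS2 the CHR nearest the start begins at -29, -28 and -29, and an NF-Y match stands upstream of it at -98, -53 and -52. In MKI67 a further NF-Y match at -24 shares 1 base with that CHR. CDC20 has its CHR farther out, at -65, between NF-Y matches at -100 and -55. CCNB2 and PLK1 place the CHR at -29, BUB1B at -23 and CDC25C at -30. The -30 of CDC25C is counted from the start at 138331804. From the start at 138331877 the same TTTGAA begins at 43, downstream of that start. CDC25C has 4 listed starts, and the 2 that lie farthest upstream had no match of either kind in their windows.

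**Figure D1:**
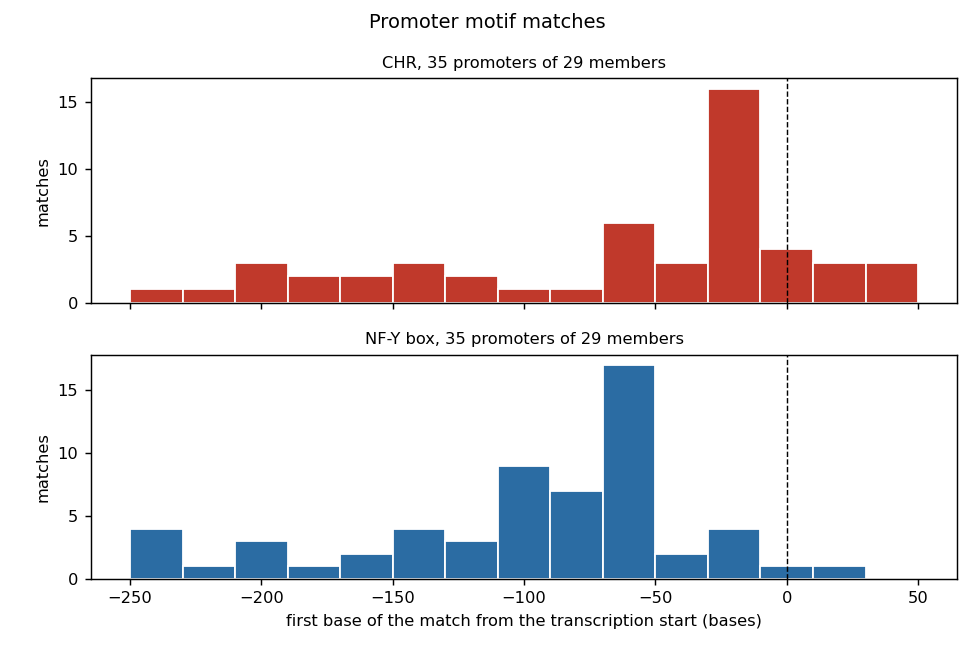
Number of CHR matches (top) and NF-Y box matches (bottom) by distance of the first base from the transcription start, in bins of 20 bases, over the 35 promoters of 29 members; promoters of genes with more than 1 start can overlap, so a match can count more than once. The tallest CHR bin lies within 30 bases before the start and the tallest NF-Y bin farther upstream.

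Total counts lay between 51543550 and 57463020 per library. The promyelocyte identity of the cells was checked on 8 markers, whose summed level was 1456 to 1618 CPM (counts scaled to library size with TMM factors) in the controls and 2558 to 2919 CPM in the overexpressing libraries; MPO, a defining member, lay between 0.518 and 1.45 CPM. The T cell markers CD3D, CD3E and CD3G and the erythroid markers HBA1, HBB and ALAS2 were under 1 CPM in all 6. The T and NK cell list of 8 summed to 54.8 to 74.2 CPM in the controls and 99.9 to 119 CPM in the overexpressing libraries. Most of that sum was NKG7, which held 55.8, 53.2 and 72.6 CPM against 100, 99.3 and 119 CPM and passed as higher. CD2 averaged 1 CPM in the controls and 0.05 CPM in the overexpressing libraries and passed as lower. For the 10 B lineage markers the controls summed to 24.5 to 36.9 CPM and overexpressing replicate 1 to 34.7 CPM, whereas replicates 2 and 3 reached 227 and 237 CPM; 4 of the 9 tested passed as higher. For the 8 fibroblast and epithelial markers the controls summed to 106 to 119 CPM and overexpressing replicate 1 to 108 CPM, whereas replicates 2 and 3 were at 40 and 27.9 CPM. Overexpressing replicate 1 thus stood apart from its group in these markers. It also did so in a principal component analysis of all tested genes, which places libraries along axes of greatest spread. On the second axis it lay at -71.4, and overexpressing replicates 2 and 3 lay at 10.3 and 38.9. Overexpressing replicate 1 did not stand apart in the summed level of the 35 members. That level was 5851, 5854 and 5641 CPM in the overexpressing libraries and 6837, 6824 and 6420 CPM in the controls. The part of these other markers in the results was not tested.

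Between the groups, 4 of the 35 members rose and 9 fell in the overexpressing cells, and 22 did not pass (edgeR quasi-likelihood test, adjusted p under 0.05 over all tested genes). Over all tested genes 14.2% rose, 9.94% fell and 24.1% changed in either direction. Members are abundant transcripts, and among tested genes of at least 30 mean CPM, 16.6% rose, 17.8% fell and 34.4% changed. The members' share of rises, 11.4%, lay below both backgrounds, their share of falls, 25.7%, lay above both, and their share of changes, 37.1%, lay near that of abundant genes. Their median log2 fold change was -0.13, beside 0.01 over all tested genes and -0.04 over the abundant ones. Of the 35 estimates 25 were negative, beside 9643 of all 19485 tested genes and 3680 of the 6558 abundant ones. Of the 13 changed members 12 changed by less than 2-fold, and CDC25C was the exception. The groups did not overlap for 6 members that were higher and 12 that were lower in every overexpressing library, beside 23.0% and 19.3% of all tested genes and 23.8% and 29.5% of the abundant ones. Without overexpressing replicate 1, 3 members rose and 7 fell.

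**Figure D2:**
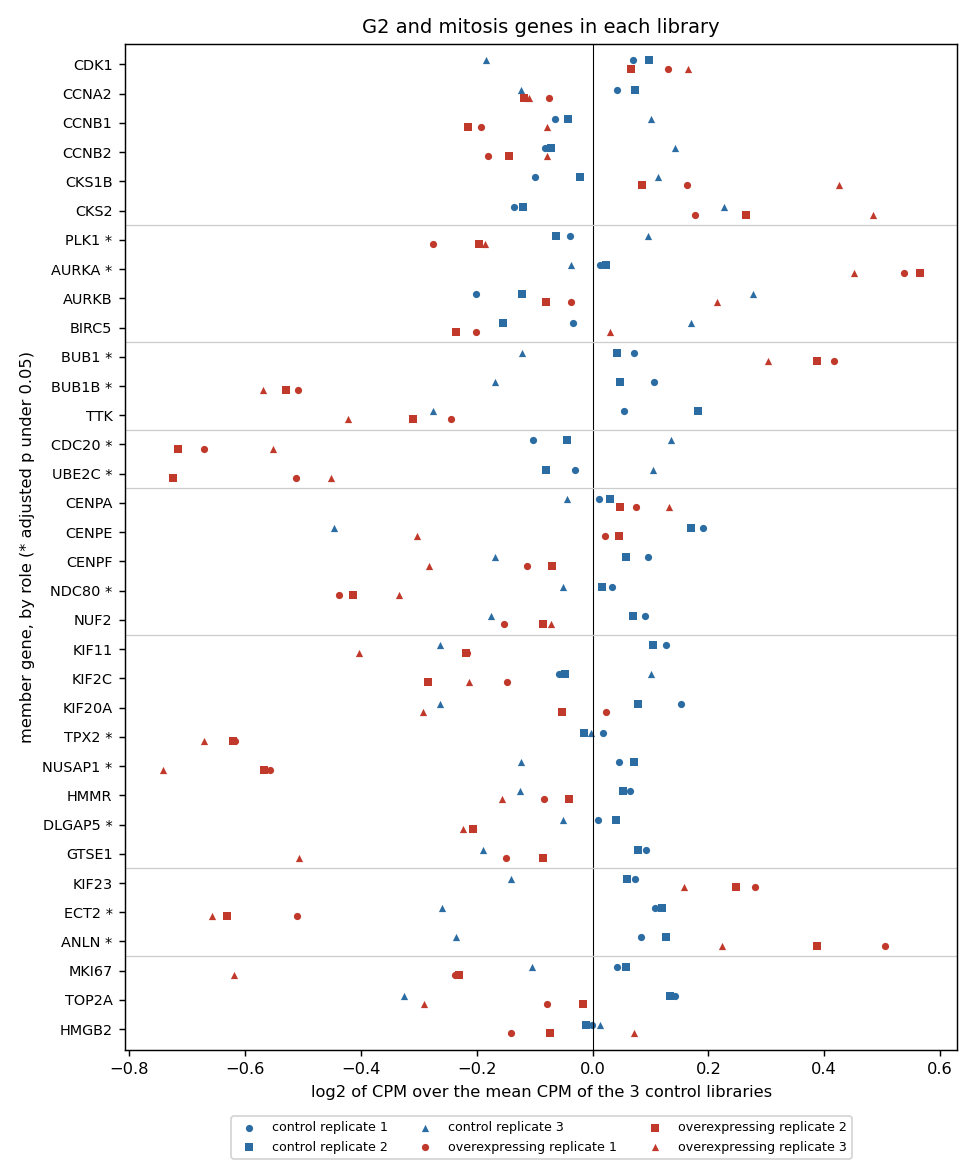
Level of 34 members in each of the 6 libraries as the log2 of CPM over the mean CPM of the 3 controls, grouped by role; blue points are control and red points overexpressing libraries, circles, squares and triangles are replicates 1, 2 and 3, and stars mark adjusted p under 0.05. CDC25C, which rose by 2.98, is left out for scale; TPX2, NUSAP1, CDC20 and BUB1B lie well to the left of all controls, and AURKA to the right.

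In the CDK1 engine only CDC25C passed the test. CDK1, the kinase, held 116, 118 and 97.5 CPM in the vector cells and 121, 116 and 124 CPM in the CD69 cells, with an interval of the log2 difference of -0.08 to 0.32 (95%). CCNA2, cyclin A2, held 191, 195 and 170 CPM against 176, 171 and 172 CPM. The groups overlapped for both genes. CCNB1, cyclin B1, held 198, 201 and 222 CPM in the vector cells and 181, 178 and 196 CPM in the CD69 cells, so that all 3 were below all controls, yet the difference did not pass the test (log2 -0.16, SE 0.07, edgeR adjusted p = 0.150). CCNB2, cyclin B2, held 138, 139 and 161 CPM against 129, 132 and 138 CPM. The small CDK-binding proteins CKS1B and CKS2 were, on average, on the other side. CKS1B held 110, 116 and 127 CPM against 132, 125 and 158 CPM (log2 0.23, SE 0.10), and CKS2 held 62.8, 63.4 and 80.7 CPM against 77.9, 82.9 and 96.5 CPM (log2 0.31, SE 0.12; adjusted p = 0.106). Both pairs of groups overlapped through control replicate 3. Without that library CKS2 passed (edgeR adjusted p = 0.0181). With a block for replicate number CCNB1, CKS1B and CKS2 passed.

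CDC25C, the phosphatase that removes the inhibitory phosphates from CDK1, was the least abundant member and the only member that changed by more than 2-fold. Vector libraries 1 to 3 gave 47, 93 and 37 raw counts for it, and CD69 libraries 460, 430 and 461. These correspond to 0.839, 1.64 and 0.66 CPM and to 8.21, 7.63 and 9.03 CPM, with a wide gap between the groups. The log2 fold change was 2.98 (SE 0.34; 7.9-fold; edgeR adjusted p = 0.000771), and it stayed between 2.74 and 3.45 over the 15 alternatives. If a fragment stands for about 4 counts, as the excess of genes with exactly 4 counts leaves possible, the control values rest on few fragments. CDC25C (ENSG00000158402; GRCh38 chromosome 5, 138285265 to 138338355, minus strand) shares 293 of its 3338 exon bases with FAM53C on the opposite strand. Whether counting used strand is not given in the sources used here. FAM53C itself held 58.3 ± 2.43 CPM in the controls and 55.4 ± 2.30 CPM in the overexpressing libraries (SD, n = 3). Within 250 kb of CDC25C, 9 coding genes were tested, of which 1 rose and 3 fell, with a median log2 fold change of -0.21. The gene that rose was EGR1, an immediate early transcription factor 127 kb away, from 11.9 ± 2.05 to 71.3 ± 3.97 CPM (SD, n = 3; log2 2.58, SE 0.13). The genes between them did not pass: KDM3B, a histone demethylase, had a log2 fold change of -0.21 (SE 0.10), and REEP2 averaged under 1 CPM in both groups. KIF20A, another member in the same region, held 103, 97.5 and 76.9 CPM in the vector cells and 93.8, 89.1 and 75.3 CPM in the CD69 cells.

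Of the kinases that drive mitosis, AURKA rose and PLK1 fell slightly. AURKA, the Aurora kinase of centrosomes and spindle poles, held 82, 82.5 and 79.1 CPM in the vector cells and 118, 120 and 111 CPM in the CD69 cells. The groups were far apart for so small a spread (log2 0.52, SE 0.06; adjusted p = 0.00093). PLK1, Polo-like kinase 1, held 250, 246 and 274 CPM against 212, 224 and 226 CPM (log2 -0.22, SE 0.07; adjusted p = 0.0499). The PLK1 call was lost when any 1 of the 6 libraries was left out (edgeR adjusted p = 0.0532 to 0.170) and without the filter on low counts (0.0901), and it shares exon bases with 2 genes on the opposite strand. AURKB and BIRC5 encode the kinase and the survivin subunit of the chromosomal passenger complex. AURKB held 71.4, 75.5 and 99.6 CPM against 80.1, 77.7 and 95.3 CPM, where replicate 3 was the highest library of both groups. BIRC5 held 54.5, 50.1 and 62.7 CPM against 48.5, 47.3 and 56.9 CPM, again with the groups overlapping.

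The spindle checkpoint kinases moved in opposite directions. BUB1, the kinetochore kinase that recruits other checkpoint proteins, held 135, 132 and 118 CPM in the vector cells and 172, 168 and 159 CPM in the CD69 cells (log2 0.37, SE 0.07; edgeR adjusted p = 0.00914). BUB1B, which encodes BubR1, a part of the complex that inhibits the APC/C, held 207, 199 and 171 CPM against 135, 133 and 130 CPM (log2 -0.54, SE 0.08; adjusted p = 0.00291). Neither pair of groups overlapped. BUB1B shares 457 of 4476 exon bases with the read-through gene BUB1B-PAK6, so part of its counts is uncertain. TTK, the kinase MPS1 at the head of the checkpoint, held 76.3, 83.4 and 60.7 CPM against 62, 59.2 and 54.8 CPM. Its groups overlapped through control replicate 3, and it did not pass (log2 -0.32, SE 0.12; adjusted p = 0.09), although it did without that library.

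Both members that activate the APC/C fell, as did 9.94% of all tested genes and 17.8% of abundant ones. CDC20, the activator that the checkpoint holds back, held 266, 277 and 313 CPM in the vector cells and 179, 174 and 194 CPM in the CD69 cells (log2 -0.64, SE 0.08; 1.56-fold lower; edgeR adjusted p = 0.00128). UBE2C, the ubiquitin-conjugating enzyme of the APC/C, held 49.7, 48 and 54.5 CPM against 35.6, 30.7 and 37.1 CPM (log2 -0.56, SE 0.09; adjusted p = 0.00463). Every overexpressing library lay below every control for both, and both calls held under all 15 alternatives. The summed level of these genes was 336 ± 27.9 CPM in the controls and 217 ± 13.8 CPM in the overexpressing libraries (SD, n = 3).

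Among centromere and kinetochore genes only NDC80 passed the test. NDC80, the subunit of the microtubule-binding complex that gives it its name, held 63.5, 62.7 and 59.8 CPM in the vector cells and 45.8, 46.6 and 49.2 CPM in the CD69 cells (log2 -0.39, SE 0.07; edgeR adjusted p = 0.00436). NUF2, its partner in the same complex, held 79.7, 78.5 and 66.2 CPM against 67.3, 70.5 and 71.2 CPM (log2 -0.10, interval -0.30 to 0.09). CENPA, the histone H3 variant of centromeres, held 49.5, 50.2 and 47.7 CPM against 51.7, 50.8 and 53.8 CPM, slightly higher in every overexpressing library without passing (log2 0.09, SE 0.06). The very long transcripts of CENPE, a kinetochore motor, and CENPF, a kinetochore protein of the corona, had overlapping groups, with replicate 3 the lowest library of each. CENPE held 70.1, 69.2 and 45.1 CPM against 62.4, 63.4 and 49.8 CPM, and CENPF held 386, 376 and 321 CPM against 334, 344 and 297 CPM.

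Kinesins and spindle assembly genes had negative estimates in all 8 cases, beside 3680 of the 6558 abundant genes. Of the 8, 3 passed (37.5%), all as lower, beside 9.94% of all tested genes and 17.8% of abundant ones that fell. TPX2, which activates Aurora A and nucleates spindle microtubules, held 985, 963 and 971 CPM in the vector cells and 634, 633 and 611 CPM in the CD69 cells (log2 -0.64, SE 0.05; 1.55-fold lower; edgeR adjusted p = 0.000189). NUSAP1, a microtubule-bundling protein, held 291, 296 and 258 CPM against 192, 190 and 168 CPM (log2 -0.62, SE 0.08; adjusted p = 0.00147). It shares 1787 of its 2875 exon bases with a read-through gene on its strand. That gene held 3.12, 0.652 and 3.87 CPM in the vector cells and 0, 0 and 3 CPM in the CD69 cells, and did not pass. DLGAP5, a stabiliser of spindle microtubules, held 96.8, 98.9 and 92.8 CPM against 83.4, 83.3 and 82.3 CPM (log2 -0.21, SE 0.06; adjusted p = 0.0349). The DLGAP5 call was lost without any 1 of the libraries other than control replicate 3 (edgeR adjusted p = 0.0814 to 0.107) and without scaling factors (0.0531). The groups of these 3 genes did not overlap. KIF2C, a kinesin that depolymerises microtubules, held 230, 232 and 256 CPM against 216, 197 and 206 CPM, separated but not past the threshold (log2 -0.21, SE 0.07; adjusted p = 0.0636). KIF11, the motor that pushes spindle poles apart, held 149, 147 and 114 CPM against 118, 118 and 103 CPM. HMMR, a spindle protein also known as a hyaluronan receptor, held 82.5, 81.8 and 72.4 CPM against 74.4, 76.7 and 70.8 CPM. GTSE1, a microtubule-binding protein of G2 and S phase, held 46, 45.6 and 37.8 CPM against 38.9, 40.6 and 30.3 CPM. The last 3 genes and KIF20A had overlapping groups.

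The 3 genes of cytokinesis differed in direction. ECT2, the exchange factor that activates RhoA at the cell equator, held 72.5, 73.1 and 56.2 CPM in the vector cells and 47.2, 43.4 and 42.7 CPM in the CD69 cells (log2 -0.60, SE 0.11; edgeR adjusted p = 0.00711). ANLN, the scaffold anillin of the contractile ring, held 130, 134 and 105 CPM against 175, 161 and 144 CPM (log2 0.38, SE 0.11; adjusted p = 0.048). The ANLN call was lost without any 1 of the libraries other than overexpressing replicate 3 (edgeR adjusted p = 0.0636 to 0.126), without scaling factors (0.0634) and without the filter (0.0981). KIF23, the kinesin of the central spindle, held 116, 115 and 99.8 CPM against 134, 131 and 123 CPM and did not pass (log2 0.23, SE 0.08; adjusted p = 0.0708). All 3 genes had groups that did not overlap, 2 of them higher and 1 lower. The shares were 23.0% higher and 19.3% lower over all tested genes, and 23.8% and 29.5% over abundant ones.

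The general proliferation markers did not pass the test. MKI67, which encodes the Ki-67 antigen that coats mitotic chromosomes, held 662, 668 and 597 CPM in the vector cells and 545, 547 and 418 CPM in the CD69 cells. Every overexpressing library was below every control, and the adjusted p was 0.0558 (log2 -0.35, SE 0.11). The adjusted p was under the threshold in 7 of the 15 alternatives, among them RLE factors (0.0457), counts divided by 4 (0.0444) and DESeq2 (0.0069). TOP2A, the topoisomerase that untangles sister chromatids, held 621, 617 and 449 CPM against 532, 556 and 459 CPM. HMGB2, a chromatin protein, held 597, 592 and 602 CPM against 541, 567 and 627 CPM. The last 2 had overlapping groups and intervals of the log2 difference of -0.44 to 0.19 and -0.20 to 0.12.

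Per kilobase of exon, TPX2 was the most abundant member in the controls with 270 CPM per kb, followed by HMGB2 with 215, CDC20 with 140 and CKS2 with 113 CPM per kb. CENPE with 6.51 and CDC25C with 0.313 CPM per kb were the lowest. In the overexpressing cells HMGB2 stood at 209 CPM per kb and TPX2 at 174. CKS2 stood at 140 CPM per kb and CDC20 at 89.5. CDC25C remained the lowest member in the overexpressing cells with 2.48 CPM per kb, below CENPE with 6.2.

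Several members lie in stretches of a chromosome whose other genes differed in the same direction. For each member, the coding genes of at least 5 mean CPM that start within 1 Mb and are not members were taken, and 23 members had at least 5 such neighbours. Of the 10 changed members among them, 8 had the sign of their neighbours' median log2 fold change, and over the 23 the sign was shared by 15. The same share over all coding genes was not computed, so these counts have no background. Among the 8, PLK1, NDC80 and DLGAP5 had neighbour medians near 0, of -0.01, -0.06 and -0.11. Spearman's rho across the 23 genes was 0.43, given as a description, since neighbouring members share genes in their windows. TPX2 (chromosome 20, 31739271 to 31801805) fell by 0.64, and its 11 neighbours had a median of -0.73, all 11 of them past the test as lower. Along chromosome 20 the run of negative values ended between 1.66 and 1.75 Mb beyond TPX2, and the chromosome as a whole had a median of 0.40 over 286 coding genes. BUB1B and NUSAP1 lie near each other on chromosome 15 (40161023 to 40221136 and 41332694 to 41381050), where 17 of 24 and 21 of 31 neighbours fell, with medians of -0.59 and -0.58. The median of chromosome 15 was 0.10. AURKA (chromosome 20, 56369389 to 56392337) rose by 0.52, beside a median of 0.46 over 5 neighbours of which 4 rose.

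Other changed members had neighbours with an opposite or smaller median, or few neighbours. UBE2C (chromosome 20, 45812576 to 45816957) fell by 0.56, while 8 of its 20 neighbours rose and 1 fell, with a median of 0.26. CDC20 (chromosome 1, 43358955 to 43363203) fell by 0.64, beside a median of -0.23 over 24 neighbours. NDC80 (chromosome 18, 2571511 to 2616635) fell by 0.39, beside a median of -0.06 over 7 neighbours, and CDC25C rose beside a median of -0.18 over 14. BUB1, ECT2 and ANLN had fewer than 5 neighbours within 1 Mb. Within 2.5 Mb the median was 0.34 over 21 genes for BUB1, 11 of them higher and 1 lower, close to the 0.37 of BUB1 itself. It was 0.07 over 8 for ECT2 and 0.01 over 9 for ANLN. The difference between a member and its neighbours was not tested, and whether the copy number of these stretches differed between the groups was not tested.

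**Figure D3:**
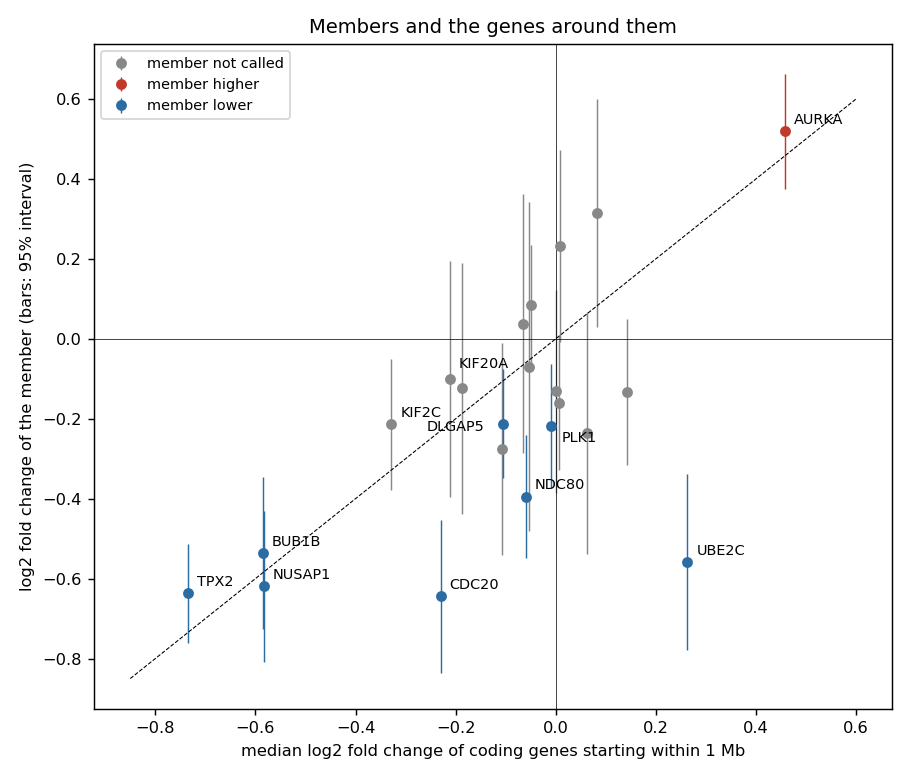
Log2 fold change of 22 members (vertical, bars are 95% intervals) against the median log2 fold change of the coding genes that start within 1 Mb (horizontal); the dashed line marks equality, blue and red points passed the test as lower and higher, and grey points did not pass. CDC25C is left out for scale. TPX2, BUB1B, NUSAP1 and AURKA lie on or near the dashed line, while UBE2C and CDC20 lie well below it.

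**Figure D4:**
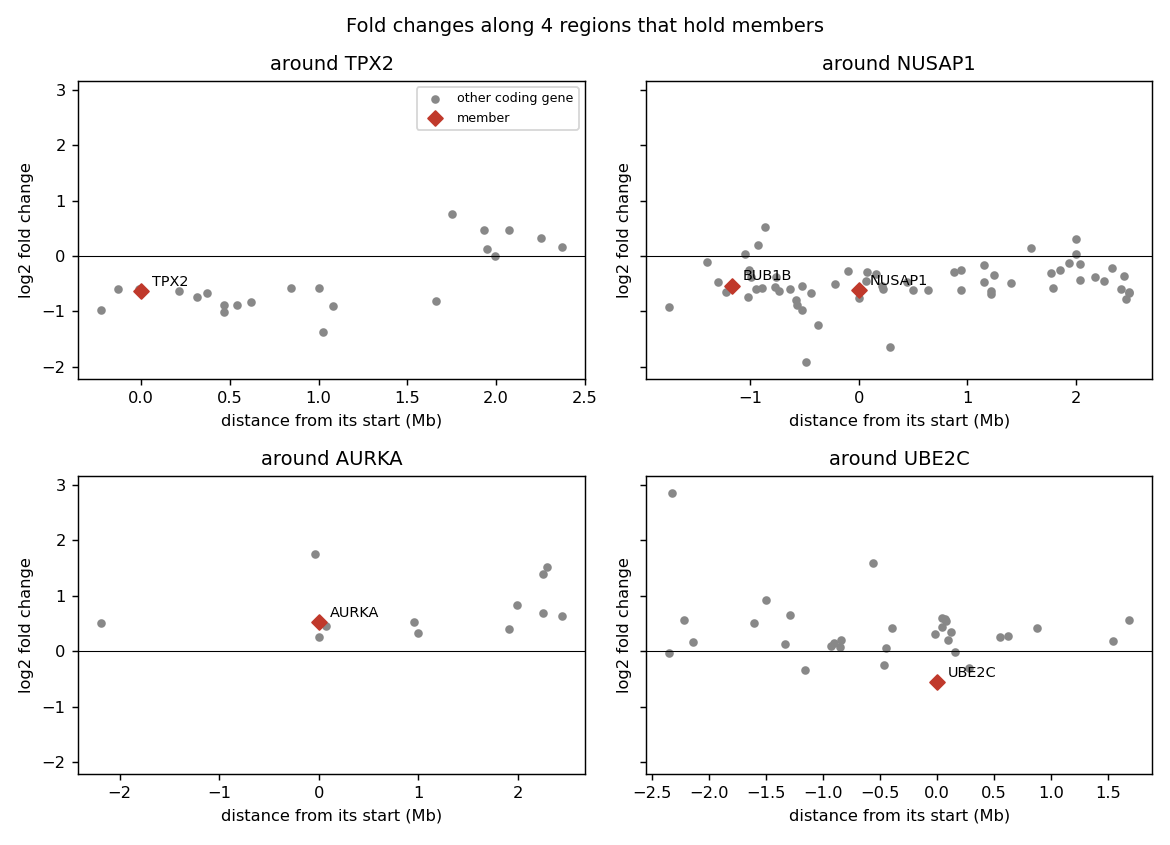
Log2 fold change of each coding gene of at least 5 mean CPM against its distance in Mb from the start of TPX2, NUSAP1, AURKA or UBE2C; red diamonds are members and grey points other genes. TPX2 and NUSAP1 sit among genes with negative values and AURKA among genes with positive values, while UBE2C is the lowest point near its position.

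Within each group the members varied mainly through replicate 3, whose ratios followed transcript length. The median absolute log2 ratio over the 35 members was 0.02 between control replicates 1 and 2, and 0.21 between control replicate 3 and the mean of the other two. In the overexpressing libraries these values were 0.04 and 0.14. Long transcripts were lower and short ones higher in replicate 3: CENPE, with 9444 exon bases, differed by -0.63 in the controls and -0.34 in the overexpressing libraries, and CKS2, with 613 exon bases, by 0.36 and 0.26. Spearman's rho between exon length and this ratio was -0.65 in the controls and -0.78 in the overexpressing libraries over the 35 members, and -0.49 and -0.53 over 10248 coding genes. Between replicates 1 and 2 it was -0.05 and 0.06 over the coding genes and -0.35 and 0.10 over the members, so that the control members also had a weaker order by length there, at much smaller ratios. These are descriptions, and the points share their libraries. For 30 of the 35 members replicate 3 deviated in the same direction in both groups. The fold changes between the groups were not ordered by length, with a rho of -0.06 over the members. RNA integrity values per library were not used here, and their part in this pattern was not tested.

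**Figure D5:**
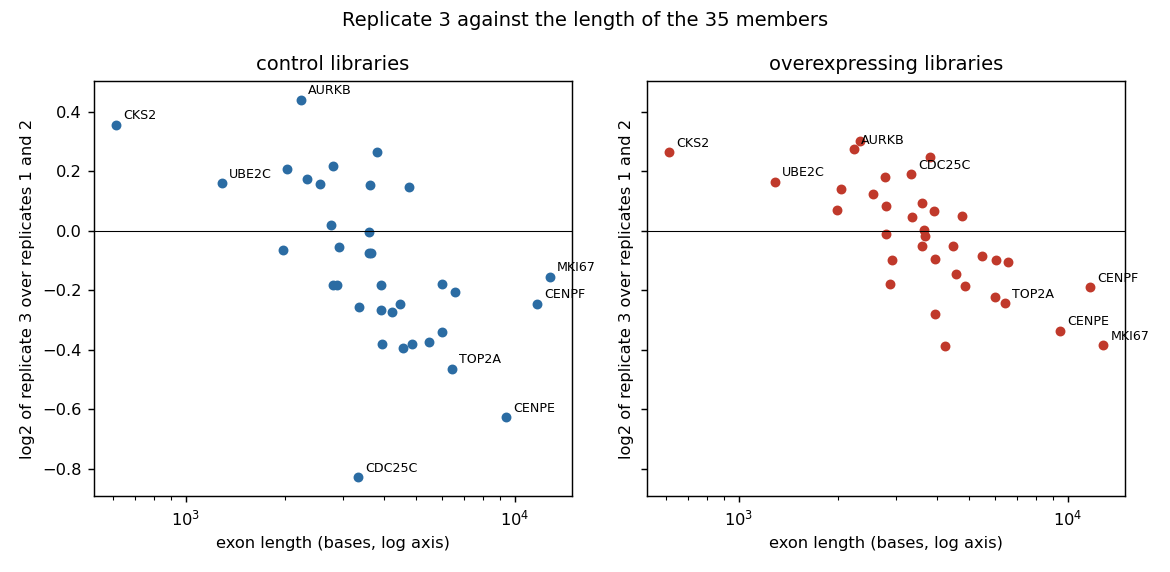
Log2 ratio of replicate 3 to the mean of replicates 1 and 2 (on the log2 scale) against exon length in bases on a log axis for the 35 members, in the controls (left) and the overexpressing libraries (right). Short transcripts such as CKS2 lie above 0 and long ones such as CENPE and TOP2A below 0 in both panels.

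Of 133 other genes of the same process, 11 rose and 21 fell, with a median log2 fold change of -0.10; the share that changed, 24.1%, was that of all tested genes to 3 digits and was lower than that of abundant ones. The numbers were 7 and 11 without control replicate 1, 6 and 13 without control replicate 2, 7 and 13 without overexpressing replicate 1 and 7 and 10 without overexpressing replicate 2. Without control replicate 3, 38 fell. Among the 24 further centromere and kinetochore genes 3 rose (12.5%) and 8 fell (33.3%). Of all tested genes 14.2% rose and 9.94% fell, and of the abundant ones 16.6% and 17.8%. CENPH, on chromosome 5, rose from 40 ± 3.03 to 68 ± 6.12 CPM (SD, n = 3; log2 0.77, SE 0.09). CENPI, on chromosome X, and DSN1, on chromosome 20, rose by 0.38 and 0.42 on the log2 scale. The medians of chromosomes 5, X and 20 were -0.07, 0.49 and 0.40. OIP5, which helps to load CENPA, fell from 31.5 ± 3.32 to 18.6 ± 1.13 CPM and starts next to NUSAP1 on the opposite strand. SKA3, SKA1, ZWINT and HJURP, the chaperone of CENPA, fell by 0.60, 0.48, 0.41 and 0.34 on the log2 scale. KNSTRN, a spindle and kinetochore protein, fell by 0.60 and lies between BUB1B and NUSAP1 on chromosome 15, as do the kinetochore scaffold KNL1, which fell by 0.64 and was picked out after its value was seen, and OIP5.

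Further regulators and structural genes also differed. CDC25B, the sister phosphatase of CDC25C on chromosome 20, rose from 83.3 ± 8.61 to 126 ± 4.21 CPM (SD, n = 3; log2 0.60, SE 0.08). CKAP2L and PRC1, both of the spindle, rose by 0.63 and 0.46 on the log2 scale, and SMC1A, a cohesin subunit on chromosome X, rose by 0.44; the X median was 0.49. PRC1 shares 3181 of its 5525 exon bases with another gene on its strand, which leaves its value uncertain. The chromatin proteins HMGB1 and HMGB3 fell by 0.41 and 0.52 on the log2 scale.

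Of 19 regulators of transcription of these genes, 2 passed the test (10.5%), a share below the 24.1% of all tested genes and the 34.4% of abundant ones. NFYA, the subunit of NF-Y that contacts the CCAAT box, held 92.8, 90.6 and 76.3 CPM in the vector cells and 166, 166 and 150 CPM in the CD69 cells (log2 0.89, SE 0.09; edgeR adjusted p = 0.00045). FOXM1, the forkhead factor that activates G2 and mitosis genes, held 159, 160 and 177 CPM against 134, 144 and 138 CPM (log2 -0.25, SE 0.07; adjusted p = 0.031). The groups did not overlap for either gene. NFYB and NFYC, the other NF-Y subunits, had log2 fold changes of 0.06 and -0.22 without passing. MYBL2, which encodes B-MYB, had 0.17, and the MuvB genes LIN9, LIN37, LIN52, LIN54 and RBBP4 had -0.09, -0.10, -0.20, 0.05 and -0.13, none past the threshold. The pocket proteins RBL1 and RBL2 had 0.30 and 0.53, the factors E2F1, E2F4, E2F7, E2F8 and TFDP1 had 0.12, -0.20, -0.10, 0.24 and -0.11, and CDKN1A had -0.27. All of these are log2 fold changes whose adjusted p was at least 0.0514. FOXM1 and NFYA each share exon bases with a gene on the opposite strand.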

How the data were processed

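RNA-seq of 3 control and 3 CD69-overexpressing NB4 libraries was deposited by the authors as a table of whole-number counts, 1 column per library. FastQC, fastp, STAR and featureCounts (Subread) were used with GRCh38 (hg38), per the submitters' processing notes. The sources used here name no versions, annotation, strand setting or counting unit. In control replicate 1, 1496 genes held exactly 4 counts against 777 at 3, so 1 fragment may stand for about 4 counts.

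Genes were named from a table of Ensembl identifiers. Positions and exon lengths came from GENCODE v29 (GRCh38) and were found for 97.2% of tested genes. Genes were filtered with filterByExpr, scaled by TMM and tested with edgeR 4.0.16 (glmQLFit, glmQLFTest; R 4.3.3). P-values were two-sided and adjusted after Benjamini and Hochberg over all 19485 tested genes, with a threshold of 0.05. The members, gene lists and alternatives were chosen with earlier results of these data known. All members are named; of other genes of the process, the regulators of transcription and the 8 with the smallest p in each direction are named, and other genes were chosen after their values were seen. Some genes of these lists are not reported here. Libraries of a group differed beyond sampling noise: with counts divided by 4, chi-square over its degrees of freedom was 2.29 to 14.0.

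Of the members, 12 share exon bases with another gene. These were CCNA2, CDC25C, PLK1, NUF2, KIF2C, KIF20A, HMMR, KIF23 and ANLN on the opposite strand and BUB1B, CENPA and NUSAP1 on the same strand, and their counts are uncertain to that extent. The test was checked on simulated counts. Alternatives were RLE, upper-quartile or no factors, no filter, at least 50 counts in 3 libraries, DESeq2 1.42.0, limma-voom (limma 3.58.1), counts divided by 4, a block for replicate number, and leaving out each library. Figures were drawn with matplotlib 3.10.9.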

Additional observations from a re-analysis of the deposited data

How the results depend on the processing

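Of the 13 member calls, 10 held under all 15 alternatives, and PLK1, DLGAP5 and ANLN lost theirs under some. A further 11 members passed under at least 1 alternative. Leaving out each library in turn gave 3 to 4 members higher and 7 to 11 lower, 6 to 16 of the other process genes higher and 10 to 38 lower, and 1783 to 2917 of all genes higher and 1137 to 2226 lower, with the lowest of both numbers without overexpressing replicate 2; without control replicates 1 and 2, 1227 and 1287 were lower. Only AURKB (-0.058 to 0.20) and CENPE (-0.25 to 0.034) changed sign among the members, both when libraries were left out and neither past the threshold. Without the filter 7 of the other genes were higher, and DESeq2 called 39 of them lower. The cause of these shifts was not tested. Over all tested genes the deviations of same-numbered libraries were weakly correlated, at -0.03, 0.05 and 0.07. Control replicates 2 and 3 correlated best with the overexpressing library of the same number, and control replicate 1 with overexpressing replicate 2 (0.05). Replicate 3 of both groups deviated in the same direction for 30 of the 35 members. These values do not decide whether the replicate numbers pair the libraries. With the replicate block 7 members were higher and 16 lower, including all 13 of the main test, and 20 of the other genes were higher and 35 lower. Precision is limited by 3 libraries per group and, for CDC25C, by its low control counts.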

Other observations

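Genes of S phase, the stage before G2, also changed in both directions. Of 35 tested, 7 rose and 10 fell (edgeR quasi-likelihood test, adjusted p under 0.05), with a median log2 fold change of -0.13. The share that changed was 48.6%, beside 24.1% of all tested genes and 34.4% of those of at least 30 mean CPM. GINS1, a helicase subunit on chromosome 20, rose from 59.8 to 124 CPM on average, and PCNA, the sliding clamp on the same chromosome, from 416 to 627 CPM. CLSPN, a replication checkpoint adaptor, fell from 81.8 to 46.9 CPM and RRM2, a ribonucleotide reductase subunit, from 420 to 320 CPM. Of 13 G1 regulators, 2 rose and 2 fell (30.8%), a share between these backgrounds. The D-type cyclins parted: CCND3 rose from 130 to 248.6 CPM and CCND2 fell from 71.1 to 28.1 CPM on average, and the CDK inhibitor CDKN1C rose from 0.651 to 3.25 CPM while CDKN1B fell from 116 to 99.1 CPM. These genes were named after their values were seen.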
